A study of Mus musculus with 15 samples.

Results

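The growth hormone and IGF axis was followed here through 10 of its genes, *Ghr*, *Stat5b*, *Socs2*, *Igf1*, *Igfals*, *Igfbp3*, *Igfbp2*, *Igfbp4*, *Igf1r* and *Igf2r*, which are 10 of the 22032 gene symbols on the arrays. They were taken by name from the probes that are not controls, and 19 of the 29522 probes with a gene symbol belong to them. The livers came from male CD1 mice in 3 groups, which all received a plasmid by hydrodynamic gene delivery (HGD), a fast injection of a large volume into the tail vein. Mice of group C were given saline in place of the carcinogen, and then the empty plasmid. Those of group T received diethylnitrosamine (DEN), a carcinogen that the liver itself activates, and the empty plasmid. Those of group G received DEN and the plasmid pcDNA3/CAG-HA-Gas1, which carries a tagged *Gas1* (growth arrest specific 1) gene behind the CAG promoter. By the methods of the study, DEN was given once at day 15 at 25 µg per g of body weight, 50 µg of plasmid were given weekly between week 28 and week 34, and week 35 was the time of sampling, although the sample records give an age of 10 weeks. HGD reaches only a part of the liver cells, near the vessels. Whole-liver RNA therefore mixes tumour and other tissue and transfected and other cells.

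Growth hormone from the pituitary binds its receptor GHR on hepatocytes, and the kinase JAK2 then activates the transcription factor STAT5B. STAT5B drives *Igf1* and *Igfals* and also *Socs2* and *Cish*, whose products switch the receptor off again. Most circulating IGF1 is made in the liver and travels in a complex with IGFBP3 and the acid-labile subunit encoded by *Igfals*. Hepatocytes themselves carry few receptors for IGF1, and the liver acts mainly as the source of the hormone.

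The STAT5 core motif was searched in the promoters of these genes, because STAT5B carries the growth hormone signal to its target genes. The letters were TTCNNNGAA, which read the same on both strands, and the windows were those of RefSeq on GRCm38.p6, from 250 bases before to 50 bases after each gene start. Of the 9 genes with a window, *Igfals* alone held the motif, in 2 of its 3 windows. Over all 32851 windows the share was 8.30%, and over all 27025 gene symbols it was 9.55%. The bases before both starts of *Igfals* are shown for that reason, with the motif in capitals, 236 bases before the first start and 58 bases before the second start. Both lie on the plus strand, at chr17:24877594-24877843 and at chr17:24877981-24878230.
Igfals, first start: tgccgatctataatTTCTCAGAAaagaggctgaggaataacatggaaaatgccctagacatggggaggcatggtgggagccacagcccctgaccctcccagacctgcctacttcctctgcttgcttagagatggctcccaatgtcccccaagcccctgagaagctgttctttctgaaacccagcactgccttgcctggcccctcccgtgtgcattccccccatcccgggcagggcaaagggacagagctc
Igfals, second start: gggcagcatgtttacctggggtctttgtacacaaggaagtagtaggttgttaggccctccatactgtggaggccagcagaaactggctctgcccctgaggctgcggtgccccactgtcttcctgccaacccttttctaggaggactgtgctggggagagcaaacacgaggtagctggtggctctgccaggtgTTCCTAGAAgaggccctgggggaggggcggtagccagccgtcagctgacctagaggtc
The windows of *Ghr*, *Stat5b*, *Igf1*, *Igfbp2*, *Igfbp3*, *Igfbp4*, *Igf1r* and *Igf2r* do not hold these letters. The match is a description of the sequence and was not tested for binding. Sequence outside the windows was not searched, so motifs farther from a gene start would be missed, in *Igf1* as in the other genes.

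The 15 arrays were counted as 13 mice. The titles give each array as a separate sample, but the scans of 2 pairs carry the same code and differed less than any other pair of their group, from which shared RNA was inferred, and each pair was averaged. With 15 separate samples *Igf1r* and *Stat5b* pass for T against C, where 8.84% of all genes pass, beside 2.38% with 13 mice. Thus 3 C mice (4 arrays), 4 T mice (5 arrays) and 6 G mice (6 arrays) were compared. Between 15707 and 29765 spots per array were well above background. The 11 hepatocyte markers on the array were well above background on all arrays. For T against C the hepatocyte marker *Ttr* and the stellate cell marker *Ngfr* were called lower and the bile duct marker *Tspan8* higher, each as 1 gene of its list (11, 12 and 8 genes), beside 1.17% of all genes called lower and 1.22% called higher. Of the 11 hepatocyte markers, 5 had a higher mean in T, with a median difference of -0.1 beside 0.01 over all genes. Means were lower in T for 10 of 12 stellate cell markers (median -0.25) and for 6 of 8 bile duct markers (median -0.12). None of 10 lymphocyte markers was called. *Gas1* itself had a log2 signal of 6.30 to 6.67 in the mice of group C, 6.41 to 6.61 in group T and 6.49 to 6.79 in group G. These ranges overlap, so the array signal did not set the groups apart by their plasmid, and the difference between G and T was 0.08 ± 0.08 (SE, limma, adjusted p = 0.768). Where its probe lies relative to the delivered insert was not analysed here. In group T the arrays T1 and T2 differed most, with an SD of their log2 differences of 0.435. T2 differed from T3, T4 and T5 by an SD of 0.33 to 0.343, and T1 from the same arrays by 0.291 to 0.328. Mouse T2 was the lowest of group T for 7 of the 10 genes, as C2 was in group C for 7 and G6 in group G for 6. C3+C4 was the highest of group C for 8.

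None of the 10 genes passed an adjusted p of 0.05 (limma, Benjamini-Hochberg over all genes) in any comparison. For T against C the share called was 0 of 10, beside 2.38% of all genes. For G against T it was 0 of 10, beside 0.127%, and for G against C 0 of 10, beside 0.427%. With T and G as 1 group against C it was again 0 of 10, beside 1.44%. The two-tailed t-test, which the methods name for measurements other than the arrays, called none of them either on the same values with Benjamini-Hochberg adjustment. For T against C it called 0% of all genes, with equal or unequal variance. Its largest share was 1.32%, for both DEN groups against C with unequal variance. With so few calls among all genes, it cannot set the 10 genes apart from the others. At an unadjusted p of 0.05, *Igf1r* and *Stat5b* passed for T against C, where 20.3% of all genes did, and *Igf1r* and *Igfbp3* passed for G against T, where 10.9% did. *Igfals*, *Igfbp3* and *Stat5b* passed so for G against C, where 13.2% did. For both DEN groups together these 3 and *Igf1r* passed, where 18.4% of all genes did. The median log2 difference of the 10 genes was 0.13 for T against C, beside 0.01 over all genes, and 0.10 for G against T, beside -0.01. As these are bulk livers, fewer cells of a type and less RNA per cell cannot be told apart.

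**Figure D1:**
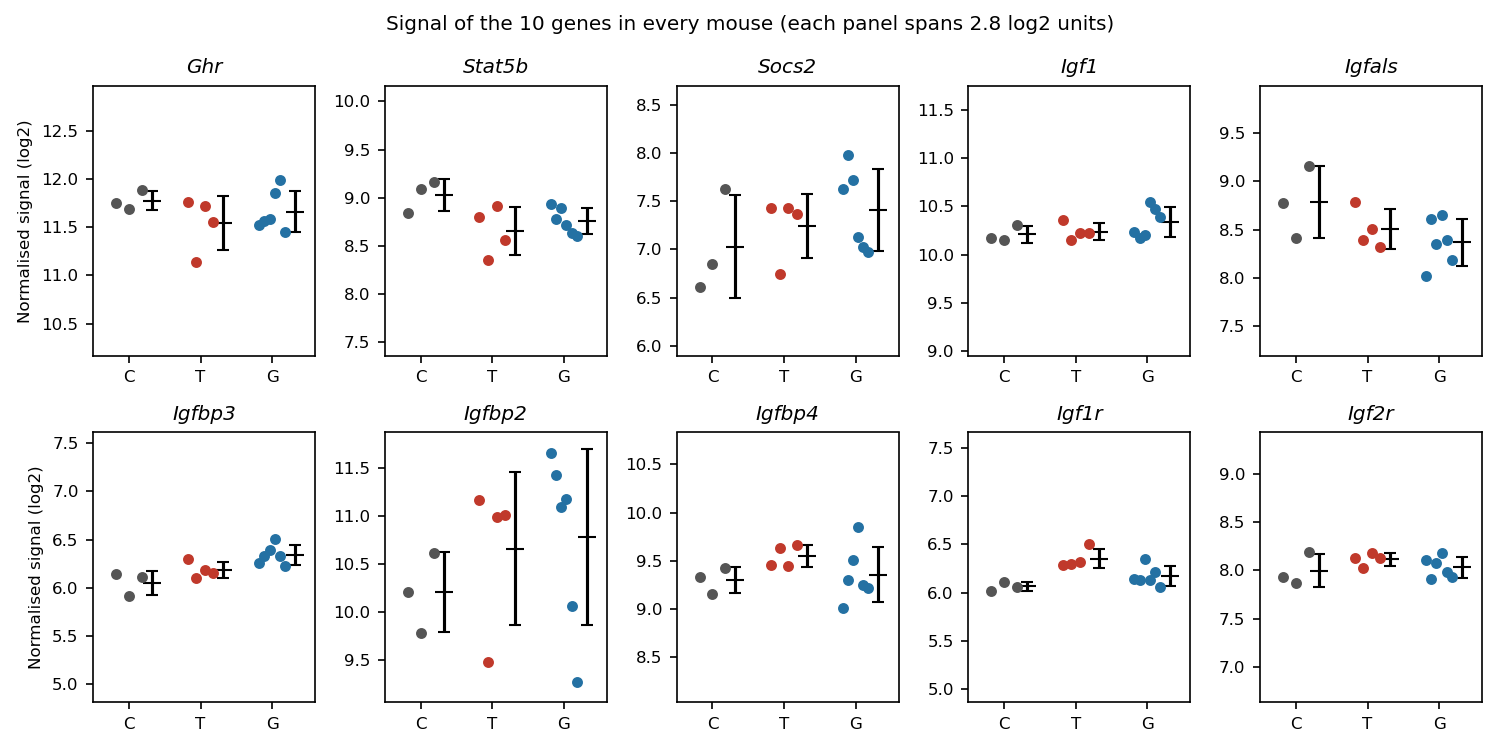
Normalised log2 signal of the 10 genes in each of the 13 mice, by group (C, T and G); points are mice, the bars to their right give mean ± SD, and every panel spans the same range. The T mice of *Igf1r* lie above all C mice, and *Igfbp2* and *Socs2* spread most within groups.

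The receptor and its signalling genes came first. *Ghr* is measured by 2 probes and had a log2 signal of 11.75, 11.69 and 11.89 in the mice of group C and of 11.76, 11.14, 11.72 and 11.55 in those of group T. In the 6 mice of group G it ran from 11.45 over a median of 11.58 to 11.99. The groups overlapped, with mice T2 and T4+T5 below all C mice and T1 and T3 among them. The difference between T and C was -0.23 ± 0.15 (SE, adjusted p = 0.438), which is a fold of 0.851 with a 95% confidence interval of 0.676 to 1.07. Without T2 it was -0.10 ± 0.13.

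The probes of *Ghr* lie at chr15:3268107-3268166 and chr15:3277543-3277602 on mm9 and are listed for different transcripts in the array design. The difference between T and C was -0.10 ± 0.14 for the first. For the second it was -0.36 ± 0.18 (adjusted p = 0.294 over all probes). Neither passed the test.

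*Stat5b*, the transcription factor, had the lowest unadjusted p of the signalling genes. Its log2 signal was 8.84, 9.09 and 9.16 in group C and 8.80, 8.36, 8.92 and 8.56 in group T. In group G it ran from 8.60 over 8.75 to 8.94. The T and C mice overlapped through mouse T3 alone, which lay above mouse C1. The difference between T and C was -0.37 ± 0.13 (adjusted p = 0.136), a fold of 0.772 with an interval of 0.635 to 0.938, and between G and C it was -0.27 ± 0.12 (adjusted p = 0.353). The 2 probes, at chr11:100642045-100642104 and chr11:100642187-100642246, gave -0.44 ± 0.16 and -0.21 ± 0.08 for T against C, the latter without mice T2 and G5, whose spots were flagged. Among the alternatives, the difference of the gene between T and C passed only where all 15 arrays were counted as separate samples (adjusted p = 0.0286). In that setting 8.84% of all genes passed. Within slide 1 the difference was -0.70 ± 0.11 and within slide 2 -0.22 ± 0.13.

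*Socs2*, the feedback inhibitor, varied much more between mice than between groups. Its log2 signal was 6.61, 6.85 and 7.63 in group C and 7.43, 6.74, 7.43 and 7.37 in group T. In group G it was 7.63, 7.98 and 7.72 in mice G1, G2 and G3 and 7.13, 7.02 and 6.97 in mice G4, G5 and G6. The groups overlapped, since mouse C3+C4 reached the level of G1, and T2 lay between the other C mice. The difference between G and C was 0.38 ± 0.27 (adjusted p = 0.593), and between T and C it was 0.21 ± 0.29 (adjusted p = 0.738). Without mouse C3+C4 they were 0.68 ± 0.27 and 0.51 ± 0.29, and the latter was -0.19 ± 0.35 within slide 1 and 0.29 ± 0.32 within slide 2. The 10 spots of its probe A_51_P107362 had a median SD of 0.16 on an array, while the SD of *Socs2* within groups was 0.42. That SD is at the percentile 95.2 of the 8478 genes detected on all arrays, whose median SD was 0.16.

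The genes of the circulating complex differed from each other. *Igf1*, the hormone gene, varied little. Its log2 signal was 10.17, 10.15 and 10.31 in group C and 10.36, 10.15, 10.23 and 10.22 in the T mice. In the 6 G mice it ran from 10.17 over 10.32 to 10.55. All groups overlapped. The difference between T and C was 0.03 ± 0.09 (adjusted p = 0.893), with a fold of 1.02 and a 95% confidence interval of 0.891 to 1.17. Between G and T it was 0.10 ± 0.08 (adjusted p = 0.701).

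This value of *Igf1* is the mean of 5 probes that did not move together. The brightest pair, at chr10:87393561-87393620 and chr10:87393581-87393640, overlaps and is not independent. Their mean log2 signals in group C were 12.24 and 12.60, and their differences between T and C were -0.14 ± 0.14 and -0.19 ± 0.12. The probe A_55_P2085974 at chr10:87399581-87399640 gave 0.00 ± 0.20. The probe A_55_P2031636 at chr10:87395924-87395983 was higher by 0.27 ± 0.18. Its T mice, at 8.84 to 9.04, all lay above its C mice, at 8.58 to 8.71, as T does above C for 10.4% of all probes, and its G mice ran from 8.52 to 9.48. The remaining probe, A_55_P2085979 at chr10:87378456-87378515, is listed for another *Igf1* transcript, and it was higher by 0.23 ± 0.25. No probe of *Igf1* passed the test in any comparison, and the adjusted p over all probes was 0.426 or more for T against C. The sign of the *Igf1* difference therefore depends on the probe, and the exon parts that the probes read were not analysed here.

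**Figure D2:**
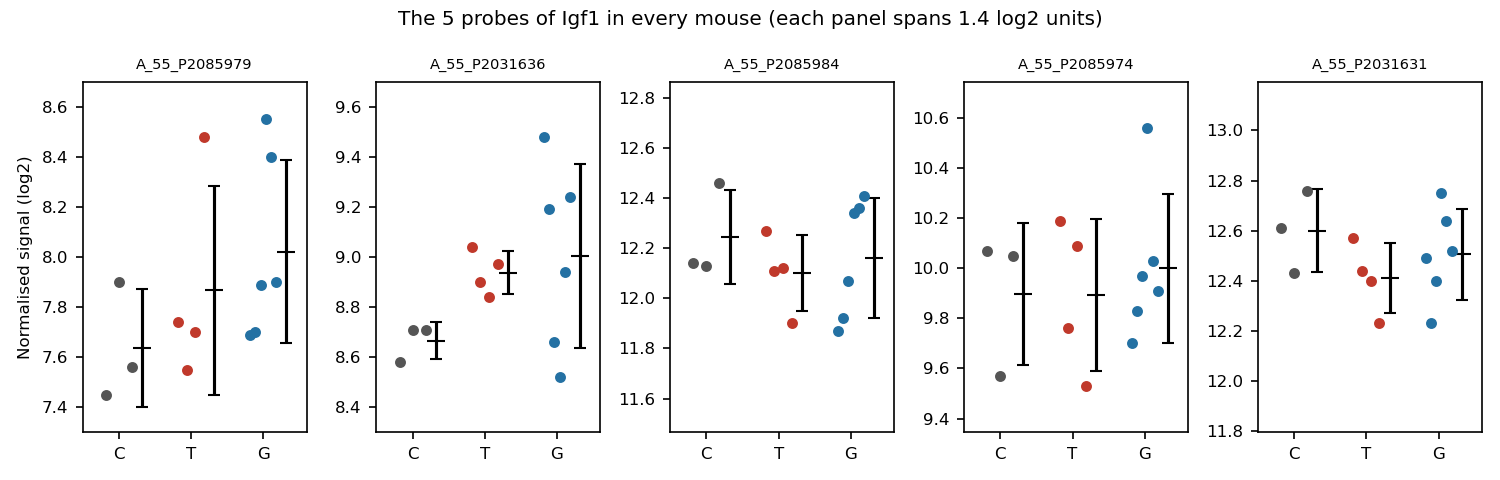
Normalised log2 signal of the 5 *Igf1* probes in the 13 mice, by group; points are mice, bars give mean ± SD, and every panel spans the same range. For probe A_55_P2031636 the T mice lie above the C mice, while for A_55_P2031631 the mean of T lies below that of C.

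*Igfals*, which encodes the acid-labile subunit and carries the motif shown above, was highest in group C on average. Its log2 signal was 8.78, 8.41 and 9.16 in group C and 8.79, 8.39, 8.51 and 8.32 in group T. In group G it ran from 8.02 over 8.37 to 8.65. The groups overlapped, because mouse C2 lay within the range of both DEN groups. The difference between G and C was -0.42 ± 0.17 (adjusted p = 0.313), a fold of 0.748 with an interval of 0.579 to 0.965, and between T and C it was -0.28 ± 0.18 (adjusted p = 0.432). The values depended on single C mice. Without C3+C4 the difference was -0.23 ± 0.17 for G against C and -0.09 ± 0.18 for T against C, and without C2 it was -0.61 ± 0.17 and -0.47 ± 0.18.

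*Igfbp3*, the carrier in the complex, which liver makes mainly outside its hepatocytes, was close to background. Its single probe, at chr11:7106594-7106653, was well above background on 0 of 4 arrays of group C, 2 of 5 of group T and 4 of 6 of group G. The log2 signal was 6.14, 5.91 and 6.11 in group C and 6.30, 6.10, 6.18 and 6.15 in the T mice. In the 6 G mice it ran from 6.22 over 6.33 to 6.51. All 6 G mice lay above all C mice, a pattern that 2.85% of all genes showed for these groups. The difference between G and C was 0.29 ± 0.07 (adjusted p = 0.112). It was 0.40 ± 0.11 within slide 1 and 0.15 ± 0.09 within slide 2, with adjusted p of 0.52 and 0.577. The weakest signal still called above background on the arrays of group C averaged 6.37, above the mean of 6.34 in group G, so no fold can be given. None of the 12 sinusoidal endothelial markers was called in any comparison, but all 12 had a higher mean in G than in C, with a median difference of 0.13 beside 0 over all genes. Their mean log2 signal was 7.53 to 7.81 in the mice of group C and 7.70 to 7.90 in those of group G. Of the 11 Kupffer cell markers, *Emr1*, which codes for the macrophage protein F4/80, was called higher in T than in C, beside 1.22% of all genes. None was called for G against C, beside 0.427% of all genes. In that comparison 9 of 11 had a higher mean in G, with a median difference of 0.09 beside 0 over all genes. An unadjusted p under 0.05 (limma) was found for 5 of the 11, beside 13.2% of all genes. The mean log2 signal of the 11 Kupffer cell markers was 7.28 to 7.78 in group C and 7.54 to 7.95 in group G. The part of these cells in the *Igfbp3* signal was not tested.

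Among the other binding proteins, *Igfbp2* had the widest spread of the 10 genes. Its log2 signal was 10.21, 9.79 and 10.62 in group C and 11.16, 9.48, 10.99 and 11.01 in group T. In group G it was 11.65, 11.42, 11.09, 11.18, 10.07 and 9.28 in mice G1 to G6. The lowest and the highest mouse of all both belonged to group G and differed 5.15-fold. The SD within groups was 0.80, at the percentile 99.3 of the genes detected on all arrays. Accordingly, the difference between T and C of 0.45 ± 0.54 (adjusted p = 0.698) had a wide 95% confidence interval, from -0.72 to 1.63. Without T2 it was 0.85 ± 0.51. Its 2 probes gave much the same for T against C, with 0.45 ± 0.56 and 0.46 ± 0.53. For G against T the difference was 0.12 ± 0.46 (adjusted p = 0.956), and -0.27 ± 0.44 without T2.

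*Igfbp4*, which binds IGFs outside the large complex, had a log2 signal of 9.33, 9.15 and 9.42 in group C and of 9.46, 9.63, 9.44 and 9.66 in group T. All T mice thus lay above all C mice, as was so for 10.5% of all genes. The gap between mice C3+C4 and T3 was only that from 9.42 to 9.44, and group G covered both, from 9.01 over 9.28 to 9.85. The difference between T and C was 0.25 ± 0.15 (adjusted p = 0.411) and between G and T it was -0.19 ± 0.13 (adjusted p = 0.637).

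Of the receptors for the IGFs, *Igf1r* came closest to the threshold. Its single probe lies at chr7:75378461-75378520 on mm9. The log2 signal was 6.02, 6.11 and 6.06 in group C and 6.29, 6.30, 6.32 and 6.50 in group T. In group G it was 6.14, 6.13, 6.35, 6.13, 6.21 and 6.06 in mice G1 to G6. All T mice lay above all C mice, again beside 10.5% of all genes, and the G mice lay between, with G3 inside the range of T and G6 inside that of C. The difference between T and C was 0.29 ± 0.07 (adjusted p = 0.0529), between G and T -0.18 ± 0.06 (adjusted p = 0.278), and between G and C 0.11 ± 0.07 (adjusted p = 0.535). With the slide as a block the first difference was 0.30 ± 0.07 and passed (adjusted p = 0.0399), and it was 0.34 ± 0.13 within slide 1 and 0.31 ± 0.07 within slide 2. It also passed without mouse G3 (adjusted p = 0.0336) or G6 (adjusted p = 0.047). With the remaining mice left out in turn the adjusted p was 0.0521 to 0.171.

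The signal of *Igf1r* was dim, however. The probe was well above background on 0 of 4 arrays of group C, 3 of 5 of group T and 3 of 6 of group G. The weakest signal still called above background on the C arrays averaged 6.37, which is more than the mean of 6.35 in group T, so that the fold has no lower bound above 1 and none is given. The study had itself selected *Igf1r* on these samples, and its pattern is therefore not independent evidence. *Igf2r*, the receptor that clears IGF2 and carries lysosomal enzymes, was read by 10 spots on each array and was well above background throughout. Its log2 signal was 7.93, 7.87 and 8.19 in group C and 8.13, 8.02, 8.18 and 8.13 in the T mice. In the 6 G mice it ran from 7.91 over 8.03 to 8.18. Its groups overlapped, and its difference between T and C was 0.12 ± 0.08 (adjusted p = 0.473), and 0.21 ± 0.08 without mouse C3+C4 (adjusted p = 0.179).

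**Figure D3:**
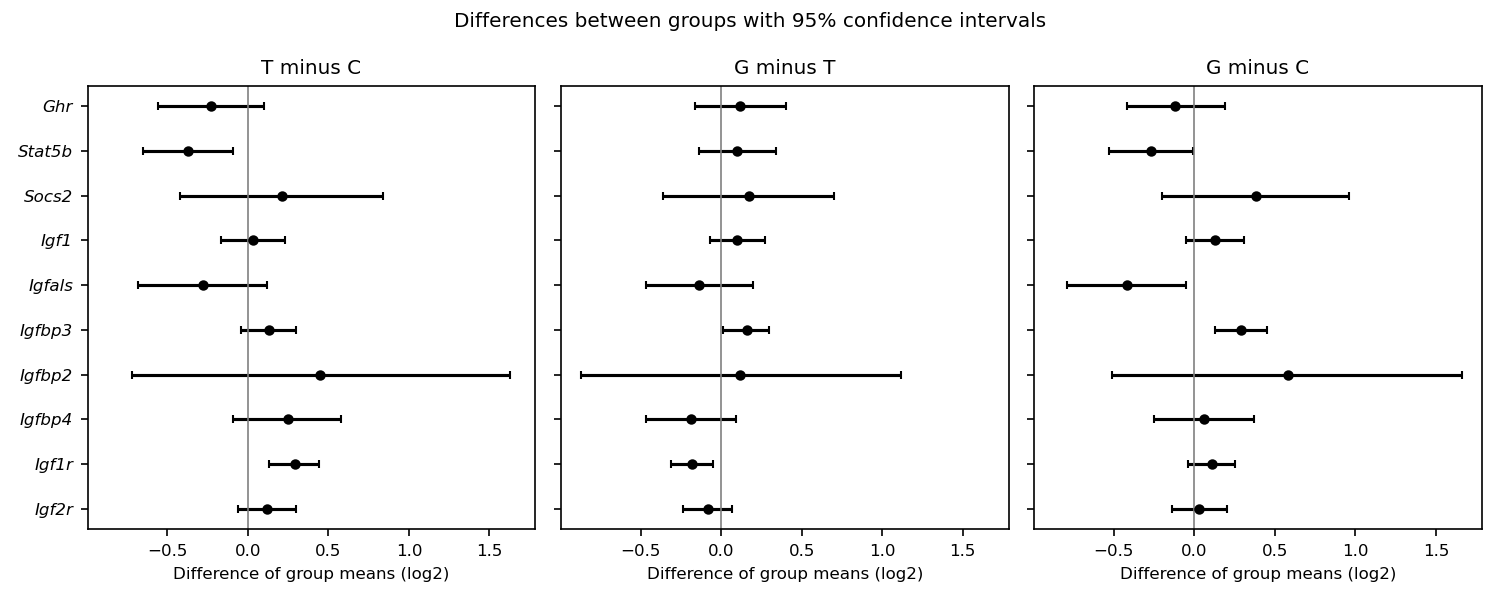
Differences between group means of the 10 genes on the log2 scale, for T minus C, G minus T and G minus C; points are the fitted differences and bars their 95% confidence intervals before any adjustment. The interval of *Igfbp2* is the widest, from -0.72 to 1.63 for T minus C, and that of *Igf1r* for T minus C runs from 0.13 to 0.44.

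In the order of their group means, *Ghr* and *Stat5b* were highest in C, followed by G and T. *Igfals* was also highest in C but lowest in G. The means of *Socs2*, *Igf1*, *Igfbp3* and *Igfbp2* were highest in G and lowest in C, and those of *Igfbp4*, *Igf1r* and *Igf2r* were highest in T and lowest in C. Steps between neighbours in this order were below the SD within groups, here the root of the mean group variance, for *Ghr*, *Socs2*, *Igf1*, *Igfbp2*, *Igfbp4* and *Igf2r*. The steps exceeded it for 1 step or more in *Stat5b*, *Igfbp3*, *Igf1r* and, at 0.28 beside an SD of 0.28, about reached it in *Igfals*. The SD pooled over all mice, as given for *Socs2* and *Igfbp2* above, was 0.27 for *Igfals*. The order depended on the scaling. When arrays were scaled to a common median in place of quantile normalization, the median of all genes moved to 0.12 for T against C, and *Ghr*, *Stat5b* and *Igfals* then had differences of 0.76 ± 0.40, 0.46 ± 0.34 and 0.49 ± 0.37 between T and C. *Igf1* had 0.90 ± 0.31 (adjusted p = 0.0728), and the differences of all 10 genes were above 0, from 0.13 for *Igfbp3* to 1.41 for *Igfbp2*. None of the 10 genes was called for T against C with that scaling, but of the 2832 genes that were, 2818 were higher in T, beside 268 of 525 with quantile normalization.

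The livers also differed from each other within groups, and 3 relations between the genes were tested on the deviations from the group means in the 13 mice. *Igf1* and *Igfals* had a Pearson r of 0.466 and a Spearman rho of 0.495 (permutation p = 0.13 and 0.0957, adjusted over the 3 relations 0.219 and 0.287). Without the mice G4 and G5, farthest from the median, r was 0.362, and it was 0.547 within slide 1 and 0.322 within slide 2. *Igf1* and *Igfbp3* had r = 0.467 and rho = 0.401 (permutation p = 0.146 and 0.197, adjusted 0.219 and 0.295). Without G4 and G5 r was 0.281, and within the slides it was 0.413 and 0.366. *Igf1* and *Socs2* had r = -0.273 and rho = -0.28 (permutation p = 0.412 and 0.387, which the adjustment left as they were), with -0.039 without G4 and G5, -0.206 within slide 1 and -0.22 within slide 2. Within the 6 mice of group G alone r was -0.895 for this pair, 0.252 for *Igf1* and *Igfals* and 0.342 for *Igf1* and *Igfbp3*. With median scaling the 3 relations had r of 0.622, 0.898 and 0.563 in the same order. None of the 3 relations passed the threshold.

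*Socs2* and *Igfbp2* did vary together, and this pair was chosen after its values had been seen, so that it is described without a p. Their deviations from the group means had r = 0.763 and rho = 0.769 over the 13 mice. Without the mice T2 and G6, farthest from the median, r was 0.679. It was 0.756 over the 7 arrays of slide 1, 0.752 over the 8 arrays of slide 2 and 0.762 within group G. Mice G1, G2 and G3 were high for both genes, mice G5 and G6 and mouse T2 were low for both, and G4 was lower for *Socs2* than for *Igfbp2* in the order of the G mice. Points share the array on which both genes were read. Other genes followed each of the 2 more closely, among 7929 genes well above background on all 15 arrays. By Pearson r of the signal over the 13 mice, *Igfbp2* ranked 25 for *Socs2*, and *Socs2* ranked 33 for *Igfbp2*.

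**Figure D4:**
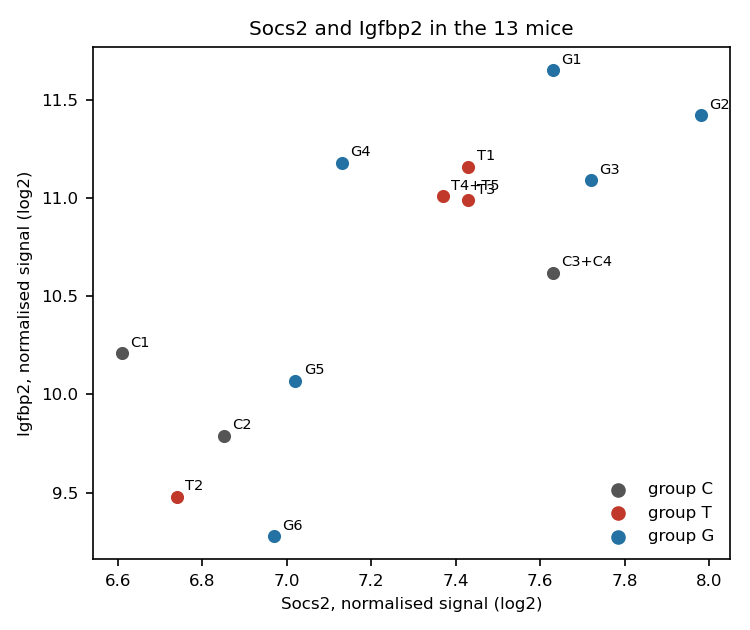
Normalised log2 signal of *Igfbp2* against that of *Socs2*, with 1 point per mouse coloured by group and named. The T and G mice rise from T2 and G6 at the lower left to G1 and G2 at the upper right. Mouse C1 has the lowest *Socs2* signal of all but lies above T2 and G6 for *Igfbp2*. C3+C4 lies below G1 for *Igfbp2* at about the same *Socs2* signal.

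The genes whose signal over the 13 mice was most like that of 4 of the 10 genes were listed by Pearson r, among 7929 or, for *Igf1r*, 7930 genes well above background on all 15 arrays and without missing values. For *Igf1* these were *Sh3tc1* (r = 0.838), *Zbtb48* (r = 0.789) and *H2-Aa* (r = 0.782), the last of which encodes a class II antigen-presenting chain. For *Socs2* they were *Myst3* (r = 0.881), *Trit1* (r = 0.845) and *Adrbk1* (r = 0.828). For *Igfbp2* they were *Dock5* (r = 0.872), *Trit1* (r = 0.869) and *Zranb1* (r = 0.854). *Trit1*, which modifies transfer RNAs, was thus on the lists of both *Socs2* and *Igfbp2*. For *Igf1r*, whose own signal was well above background on only 6 of the 15 arrays, so that its list ranks genes against a signal near background, they were *Zc3h18* (r = 0.961), *Vapa* (r = 0.912) and *Vash1* (r = 0.898). These are the highest of many correlations and stand as a description.

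The other genes of the axis were taken from a list of 42, of which 22 were well above background on all arrays and 9 on none. None of the 42 was called in any of the 4 comparisons, and 10 had an unadjusted p under 0.05 for T against C, where 20.3% of all genes did. Their median difference between T and C was 0.02, beside 0.01 over all genes. STAT5 motifs stood in at least 1 promoter window of 6 of the 34 with a window, *Akt2*, *Bcl6*, *Cish*, *Pdpk1*, *Prlr* and *Socs3*. That is 17.6%, beside 9.55% of all gene symbols, and the excess was not tested. The motifs of *Cish* and *Pdpk1* began at or after the gene start. The kinase *Jak2* had a mean log2 signal of 7.99 ± 0.17 (SD) in C and 8.07 ± 0.16 in T. *Stat5a*, the close relative of *Stat5b*, had 7.35 ± 0.19 in C, 7.10 ± 0.05 in T and 7.11 ± 0.13 in G, and its difference between T and C was -0.25 ± 0.10 (SE, adjusted p = 0.171). Of the feedback inhibitors, *Cish* had 7.92 ± 0.22 in C, 6.96 ± 1.11 in T and 7.34 ± 0.63 in G (T against C, adjusted p = 0.326). *Socs3*, which responds mainly to interleukin 6, had 6.74 ± 0.48 in C, 7.69 ± 0.65 in T and 7.61 ± 0.31 in G, and its difference between T and C was 0.96 ± 0.32 (adjusted p = 0.123). *Igfbp1*, which insulin represses, ranged from 9.43 to 11.13 in C and from 9.33 to 11.43 in G. The insulin receptor gene *Insr* differed by -0.02 ± 0.11 between T and C. On no array was *Igf2*, the fetal ligand, well above background.

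Genes that follow the sex-dependent rhythm of growth hormone release were read as a further group. Of 18 male-biased liver genes on the array, 1 fell in T against C, beside 1.17% of all genes, and none rose. It was *Cyp4a12a*, a fatty acid hydroxylase, with a mean log2 signal of 12.48 ± 0.25 (SD) in C, 11.50 ± 0.32 in T and 12.08 ± 0.20 in G. Its difference between T and C was -0.98 ± 0.17 (SE, adjusted p = 0.019), which was lost in 3 of the 13 fits that left out 1 mouse (without C1, T3 or T4+T5). Between G and T it was 0.58 ± 0.15 (adjusted p = 0.14). With median scaling its difference between T and C was 0.00 ± 0.39. Probes of the cytochrome P450 families may also read close paralogs, which was not tested. The male-biased *Elovl3*, a fatty acid elongase, and *Cyp7b1*, an oxysterol hydroxylase, had differences of -1.50 ± 0.50 and 1.13 ± 0.37 (adjusted p = 0.121 and 0.117). *Bcl6*, a repressor that competes with STAT5, differed by 1.51 ± 0.57 (adjusted p = 0.165). The median of the male-biased genes was 0.19, beside 0.01 over all genes. At an unadjusted p of 0.05 (limma), 9 of these 18 genes passed for T against C, where 20.3% of all genes did. A higher mean in T was found for 10 of the 18.

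Of 24 genes that are female-biased or rise when the male rhythm is lost, 2 fell in T against C, beside 1.17% of all genes, and none rose, and 8 were not well above background on any array. Those that fell were *Ntrk2*, a neurotrophin receptor, with 7.12 ± 0.25 (SD) in C and 6.40 ± 0.13 in T (adjusted p = 0.0167), and *Rtn4*, a protein of the endoplasmic reticulum, with 8.16 ± 0.18 in C and 7.15 ± 0.25 in T (adjusted p = 0.0441). The call of *Ntrk2* was lost in 2 of 13 fits that left out 1 mouse (without C1 or T3), and that of *Rtn4* in 9 of 13 (without C1, C2, C3+C4, T2, T3, T4+T5, G2, G3 or G4). *Cyp2b10*, *Cyp3a16* and *Cyp2a4*, which are drug and steroid hydroxylases, differed by -2.07 ± 0.63, -1.68 ± 0.46 and 1.27 ± 0.59 (adjusted p = 0.0966, 0.07 and 0.253). Between G and T, *Cyp3a16* differed by 1.79 ± 0.39 (adjusted p = 0.102). The median of this list was 0.02. At an unadjusted p of 0.05 (limma), 10 of the 24 genes passed for T against C, where 20.3% of all genes did. A higher mean in T was found for 13 of the 24. No gene of these 3 lists was called for G against T or for G against C. With both DEN groups together against C, *Cyp4a12a* and *Ntrk2* were called again (adjusted p = 0.0452 and 0.0362), in a comparison that shares its T and C mice with the first. These calls were lost in 10 and 5 of the 13 fits that left out 1 mouse.

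**Figure D5:**
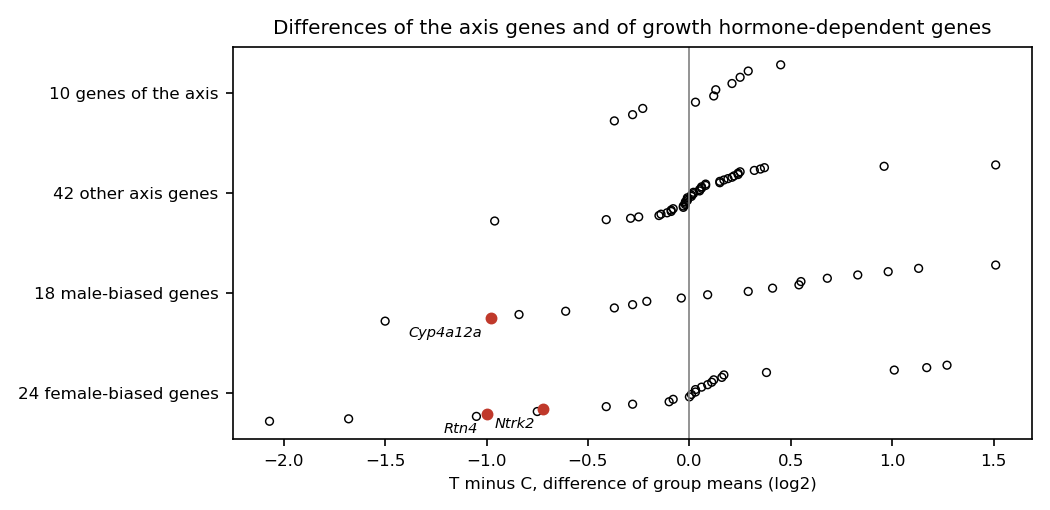
T minus C, as a difference of mean log2 signal, for each gene of 4 lists, 1 point per gene; filled points have an adjusted p under 0.05 and are named, open points do not pass. None of the 10 genes or of the 42 other axis genes passes, while *Cyp4a12a*, *Ntrk2* and *Rtn4* lie on the lower side and pass.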

How the data were processed

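The authors deposited the scanner output of 15 single-colour arrays, extracted with Feature Extraction 10.7.3.1, with the intensity of each spot and of its local background. They also deposited the software's other flags for spots above background and for outliers. A series table that the authors deposited contains log2 values, processed by normexp and quantile normalization, and served as an alternative. The median absolute difference from the gene values computed here was 0.0029.

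The intensity was corrected with normexp (offset 50, on all spots) in limma 3.58.1 under R 4.3.3, log2-transformed and then quantile normalized, using the 59305 spots that are not controls. Outlier-flagged spots, 218 to 3692 per array, were left out. Spots of a probe were averaged, probes were centred and averaged per gene, and the level was added back. No filter on dim probes was applied. Gene symbols and probe positions (mm9) follow the array design. Promoters came from RefSeq (GRCm38.p6), with 1 of the 10 genes, *Socs2*, without a window.

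Arrays C3 and C4 carry 1 code in the names of their scans, and so do T4 and T5, while the titles list them as separate samples. Their log2 differences over 8478 genes had an SD of 0.146 and 0.143, or 0.502 and 0.609 of the value for the closest other pair in their group, under the limit of 0.7. Shared RNA was inferred from this, and each pair was counted as 1 mouse. The small number of mice limits precision. Slide 1 held 7 arrays and slide 2 held 8, with all groups on both, and scans followed slides.

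Groups were compared with lmFit and eBayes on 1 mean per group over all 13 mice, with Benjamini-Hochberg adjustment over 22032 genes. Scripts were tested on simulated data. Correlations were tested with 100000 permutations within groups (two-sided). The alternatives were other background corrections, scalings, probe rules, array pairings, slide and replicate blocks, tests and fits without each mouse. The genes and lists were chosen with earlier results of these data known. All 10 genes are named. Of the list of other axis genes the called ones, 7 fixed ones and those with the motif are named, and of the sex-biased lists the called ones and the 3 others with the largest differences for T against C. For *Igf1*, *Socs2*, *Igf1r* and *Igfbp2*, the 3 most similar genes are named. *Emr1*, *Ttr*, *Ngfr* and *Tspan8* were named after values were seen. The p-values measure the spread between these 13 units.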

Additional observations from a re-analysis of the deposited data

Results flagged for a closer look

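In 3 of the 20 sets of mice tested (10 genes in groups T and G), 1 mouse lay farther from the others than Dixon's 95% limit allows, and chance gives about 1 in 20 such sets. *Socs2* in group T had its lowest value, 6.74, in mouse T2, beside 7.37 in the next mouse. *Igfbp2* in group T had its lowest value, 9.48, in mouse T2 as well, beside 10.99 in the next. *Igf1r* in group T had its highest value, 6.50, in mouse T4+T5, beside 6.32 in the next. Without T2 the difference between T and C was 0.38 ± 0.29 (SE) for *Socs2* and 0.85 ± 0.51 for *Igfbp2*. Without T4+T5 that of *Igf1r* was 0.24 ± 0.07 (adjusted p = 0.126).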

How the results depend on the processing

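No gene of the 10 was called for G against T or for G against C under any alternative run. With 15 separate arrays 1.19% and 1.55% of all genes were called in these comparisons. For T against C the number called was 0, and it was 2 with all 15 arrays as separate samples (*Igf1r* and *Stat5b*), beside 8.84% of all genes. It was 1 (*Igf1r*) with a normexp offset of 16, with only the pair of group C averaged, and with the slide as a block. The shares of all genes called there were 2.5%, 5.81% and 3.63%. Leaving out each mouse gave 0 to 1 called, with *Igf1r* called without G3 or G6, beside 2.26% and 3.29% of all genes. For both DEN groups against C it was 2 with 15 separate arrays (*Igf1r* and *Stat5b*), beside 5.94% of all genes. With median scaling it was also 2 (*Igf1* and *Igfbp4*), beside 17.9% of all genes. With median scaling r was 0.622 between *Igf1* and *Socs2* and 0.898, from 0.466, between *Igf1* and *Igfals*, and *Cyp4a12a* differed by 0.00 for T against C and by 0.21 for both DEN groups. Causes were not tested. Of 1326 values of the 10 genes over 48 settings, 51 changed sign, none of them a called value, and 12 of these came with median scaling. The 10 genes' direction was compared by a test only where a value passed it. The call of *Cyp4a12a* for T against C was lost in 9 alternatives, that of *Ntrk2* in 9 and that of *Rtn4* in 16. Signal over background limits *Igf1r* and *Igfbp3*.

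No pairing of the mice by replicate number was seen, although so few pairs cannot exclude one. The r between same-numbered mice ran from -0.31 to 0.25 over 10 pairs, and 4 of 11 mice correlated best with their own number. With the replicate block 0 of the 10 genes were called in each comparison, beside 0.0272% to 1.22% of all genes. *Igf1r* then differed by 0.28 between T and C (adjusted p = 0.116).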
